A study of Sus scrofa with 8 samples.

Results

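The genes that make, carry, sense and break down retinoic acid were examined in RNA-seq libraries of the sow olfactory epithelium (OE), the sheet of nasal tissue that should carry the olfactory sensory neurons. The 9 genes were chosen by name: STRA6, ALDH1A1, ALDH1A2, ALDH1A3, CRABP1, CRABP2, CYP26A1, CYP26B1 and RARB. Each matched 1 of the 22516 gene identifiers in the files by its Ensembl symbol, and all 9 were among the 21318 genes tested. The 8 libraries came from 4 sows, 1 from the OE of each side of the nose. All sows were crosses of Landrace sires and Rongchang dams, 8 months old and in estrus. The androstenone treatment group (2 sows, 4 libraries) had Boarmate, a spray whose main ingredient is the boar pheromone androstenone, applied to the nasal cavity 30 min before slaughter. The control group (2 sows, 4 libraries) was given no spray at all, so the steroid cannot be told apart from the act of spraying or from the other contents of the spray. The sow behind each library is not named in the sources used here. Libraries were therefore taken as replicates, and the p-values below treat 2 sows per group as if they were 4 independent samples, which makes them too small.

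Retinoic acid is the signaling form of vitamin A. Retinol enters cells through the membrane receptor STRA6, is oxidised to retinaldehyde by retinol dehydrogenases, and is turned into retinoic acid by the aldehyde dehydrogenases ALDH1A1, ALDH1A2 and ALDH1A3. CRABP1 and CRABP2 bind retinoic acid in the cytoplasm, CRABP2 being the one that hands it to nuclear receptors, and the cytochrome P450 enzymes CYP26A1 and CYP26B1 oxidise it for removal. The receptors RARA, RARB and RARG pair with RXR proteins on DNA, and RARB and CYP26A1 are themselves well-known targets of the signal. In airway and nasal linings, vitamin A is needed to keep a ciliated and secretory epithelium, and its lack turns the lining squamous.

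The libraries differed in their total of estimated counts and in tissue make-up. Control 1 held 4178330 counts and the other 7 libraries 81580146 to 100685566, so that the counts of control 1 carry the widest error. The paper, however, lists a number of clean reads for control 1 that is within the range of its other libraries. The low total is thus one of the deposited counts, and its reason was not tested. Intervals given below for control 1 take these counts as they stand. The 10 most counted genes of control 4 held 29.4% of its total, against 6.57% to 9.02% elsewhere. The 9 olfactory transduction markers summed to 80.2 to 215 TPM in the control group and 94.8 to 186 TPM in the androstenone treatment group. They were uneven, with STOML3 at 34.9 to 190 TPM, ANO2 at 3.18 to 50.4 TPM, ADCY3 at 6.25 to 15.0 TPM and GNAL at 0.497 to 8.87 TPM. CNGA2 reached 5.01 TPM, CNGA4 0.699 TPM, GNG13 0.493 TPM and RTP1 0.038 TPM at most, and RTP2 was at 0 in all 8 libraries. FOXJ1, the master regulator of motile cilia, lay between 73.2 and 531 TPM, and the 7 respiratory ciliated cell markers summed to 199 to 1129 TPM in the control group and 275 to 1139 TPM in the androstenone treatment group. Bone and cartilage markers summed to 16213 TPM in control 4 and to at most 498 TPM in every other library. In such bulk samples, fewer cells of a type and less RNA per cell cannot be told apart.

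Levels of different genes were compared in TPM, a share of all transcripts in a library that is corrected for transcript length. ALDH1A1 was by far the most abundant of the 9 genes, at 1961 ± 1446 TPM (SD, n = 8 libraries), above 99.7% of the genes tested. CRABP1 followed at 159 ± 146 TPM and was above ALDH1A2, at 41.1 ± 30.8 TPM, in 7 of 8 libraries. ALDH1A2 and STRA6 (34.2 ± 30.8 TPM) could not be ordered beyond their spread, since ALDH1A2 was the higher in 5 of 8 libraries. STRA6 was above RARB (15.9 ± 4.52 TPM) in 4 of 8. RARB was above CRABP2 (12.5 ± 9.72 TPM) in 6 of 8, and CRABP2 above ALDH1A3 (9.11 ± 8.3 TPM) in 5 of 8. The enzymes of breakdown had the lowest means, with CYP26A1 at 5.05 ± 3.63 TPM and CYP26B1 at 3.18 ± 3.65 TPM, the former higher in 6 of 8 libraries. ALDH1A3 was above CYP26A1 in 5 of 8, and in the androstenone treatment group its mean of 3.76 TPM was below the 3.97 TPM of CYP26A1, so that these neighbors could not be ordered. The median gene tested had a mean of 7.21 TPM, so ALDH1A3 was near the middle of all genes and both CYP26 genes below it. Of the summed TPM of the 3 ALDH1A genes, ALDH1A1 made up 84.7% to 99.9% in each library.

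To ask whether the androstenone treatment group differed, the counts of all genes were fitted with edgeR's quasi-likelihood test, and DEGs were called at the cutoff of the study, an unadjusted p below 0.05 together with a log2 fold change (log2FC) of 1 or more in size. Of the 9 retinoic acid genes, 1 passed, which was ALDH1A3, and it was lower in the androstenone treatment group. Over all genes tested, 6.42% passed in either direction and 4.38% in the lower direction, so that 1 of 9 is close to the background. It was also the sole member with an unadjusted p below 0.05, as 11.3% of all genes had, and among the genes with a mean of at least 1 CPM 3.4% passed in the lower direction. The log2FC was below 0 for 5 genes and above 0 for 4, with a median of -0.07 against -0.021 over all genes tested. After Benjamini-Hochberg adjustment over all genes, 0 of the 9 passed in this test. At that adjusted threshold 0 of the 21318 genes passed as well, against 2415 at an unadjusted p below 0.05. With the same adjustment, the edgeR likelihood ratio test, the edgeR exact test and DESeq2 each called 1 of the 9, again ALDH1A3, among 200, 154 and 670 genes in all, and limma voom called 0 genes.

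**Figure D1:**
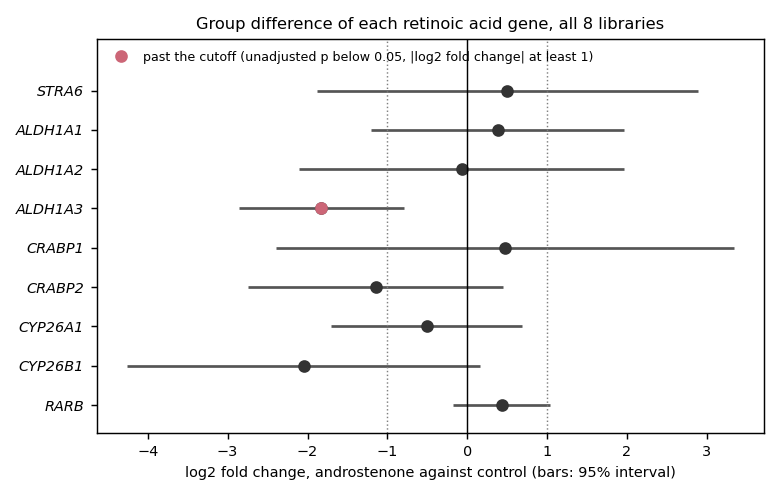
Log2 fold change of the androstenone treatment group against the control group (horizontal axis) for each of the 9 retinoic acid genes, from edgeR's quasi-likelihood fit over all 8 libraries. Bars are 95% intervals and the red point marks the gene past the unadjusted cutoff. Only the interval of ALDH1A3, from -2.86 to -0.79, lies wholly on 1 side of 0.

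ALDH1A3, which makes retinoic acid from retinaldehyde, is annotated at 139451080 to 139491514 of chromosome 1 (Sscrofa11.1, ENSSSCG00000004822). Between libraries, values of 1 gene are given as CPM, the count as a share of the TMM-scaled library total. It stood at 22.4, 56.0, 16.2 and 29.0 CPM in control 1 to 4, and in androstenone 1 to 4 at 7.85, 4.38, 10.6 and 12.1 CPM. Every control library was above every androstenone library, as was also the case in TPM (7.84 to 27.9 against 1.89 to 5.38). Groups without overlap were found for 6.53% of the genes tested, and for 2.64% with the androstenone treatment group lower. The group means were 30.9 ± 17.5 and 8.74 ± 3.39 CPM (SD, n = 4 libraries each), a log2FC of -1.83 (standard error 0.45, unadjusted p = 0.00332 and adjusted p = 0.393 by the edgeR QL test). The control group was thus 3.54-fold higher by the fit, and by its p the gene ranked 175 of the 21318 genes tested.

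The call of ALDH1A3 at the unadjusted cutoff held under all 20 alternatives tried, with log2FCs from -2.08 to -1.37. The smallest difference, -1.37, came without control 2, the library at 56.0 CPM. The adjusted p ranged from 0.00878 in DESeq2 to 0.893, and was below 0.05 in 3 of the 20. RefSeq places another gene, LOC106509041 (chromosome 1, 139435004 to 139451615), over the low-coordinate end of the ALDH1A3 interval, and the sources used here do not say how reads of the shared stretch were assigned. In control 1 the value rests on 109 counts, for which the exact 95% Poisson interval was 18.4 to 27.0 CPM (this covers counting error only, as PCR copies are not separate molecules).

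Some markers of other cell types were also lower in the androstenone treatment group, and none was higher, at the unadjusted cutoff. Of the 7 bone and cartilage markers, 6 were lower at the same cutoff (BGLAP, IBSP, DMP1, ALPL, ACAN and COL9A1), and none was at 0 in all libraries. Over all genes tested, 4.38% passed in that direction. Control 4 stood far above all other libraries in BGLAP (9371 against 42.3 to 210 TPM), IBSP (5265 against 7.95 to 210 TPM) and DMP1 (832 against 5.37 to 22.0 TPM). In these genes the other control libraries lay within or near the androstenone range. The sum of the 7 markers ran from 283 to 16213 TPM in the control group and from 63.3 to 498 TPM in the androstenone treatment group. In ACAN, ALPL and COL9A1, control 2 was high as well, at 99.7, 122 and 1.31 TPM. The androstenone libraries reached at most 4.13, 51.8 and 0.16 TPM there. The log2FC of ALDH1A3 was -1.86 without control 4, whose bone marker sum was the highest, and -1.37 without control 2. The 6 fibroblast markers (1 lower at the cutoff, DPT) summed to 350 to 9046 against 194 to 1909 TPM, and the 3 smooth muscle and pericyte markers (0 past the cutoff) to 38.7 to 557 against 9.24 to 186 TPM. The gland marker SCGB1A1 (log2FC -3.39, unadjusted p = 0.0386 in the edgeR QL test) and GAP43 of immature olfactory neurons (-1.05, unadjusted p = 0.035) were lower too, each the sole such gene of its list. Neither list moved as a whole. Among gland markers, BPIFA1 (0.75), AQP5 (0.78) and BPIFB1 (0.19) had log2FCs above 0, and LTF (-1.14) below. Among immature neuron markers, NEUROD1 (0.83) and STMN2 (0.14) were above 0, and NEUROG1 (-1.6) and GNG8 (-0.54) below. NEUROD1 and NEUROG1 reached at most 0.131 and 0.238 TPM and were at 0 in some libraries, so that their log2FCs say little. ALDH1A3 and the smooth muscle sum ordered the libraries the same way in 23 of the 28 possible pairs. The part of these cell types in the group difference was not tested.

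**Figure D2:**
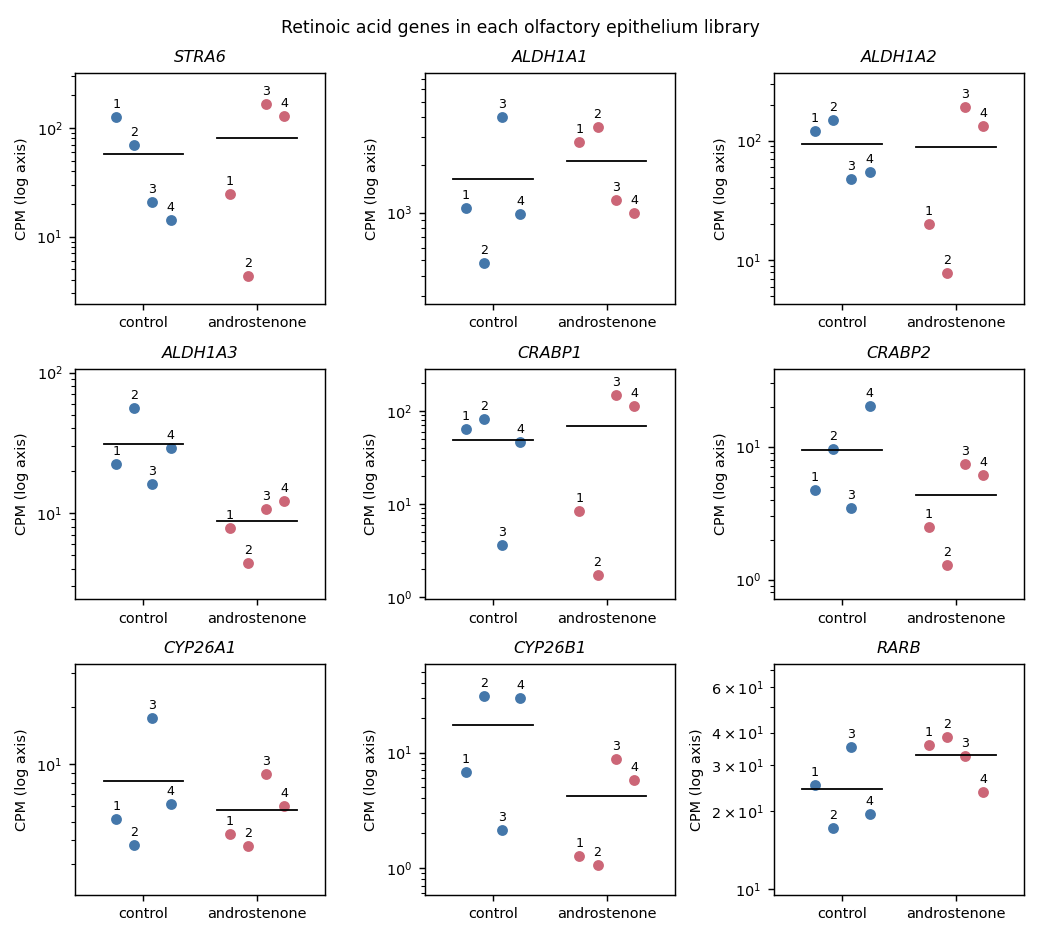
Level of each of the 9 genes in CPM on a log axis (vertical) in the control (blue) and androstenone (red) libraries, with the library number beside each point and the group mean as a line (n = 4 libraries per group). The groups are apart for ALDH1A3 and overlap for the other 8 genes.

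The other enzymes of synthesis did not separate the groups. ALDH1A1 (chromosome 1, 226163347 to 226217342) was at 1064, 480, 3981 and 979 CPM in control 1 to 4 and at 2794, 3477, 1205 and 998 CPM in androstenone 1 to 4. It was highest in control 3, androstenone 2 and androstenone 1, and the groups overlapped widely. The means of 1626 ± 1591 and 2119 ± 1210 CPM gave a log2FC of 0.38 (standard error 0.69, adjusted p = 0.832), with a 95% interval from -1.20 to 1.96. Without control 3 it was 1.33 (unadjusted p = 0.039) and passed the unadjusted cutoff, so that this library alone decides the call. ALDH1A2 (chromosome 1, 113932722 to 114037059) was at 120, 149, 47.6 and 55.1 CPM in the control group and at 19.9, 7.77, 193 and 133 CPM in the androstenone treatment group. Here androstenone 1 and 2 were the lowest of all 8 libraries and androstenone 3 was the highest. The log2FC was -0.07 (standard error 0.89, adjusted p = 0.981), with an interval from -2.11 to 1.96. ALDH1A2 was 1.89 to 5.33 times as high as ALDH1A3 in TPM in the control libraries and 1.77 to 18.0 times in the androstenone libraries.

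The retinol receptor STRA6 (chromosome 7, 59317930 to 59347274) was at 125, 69.0, 21.0 and 14.3 CPM in the control libraries and at 24.4, 4.35, 167 and 127 CPM in the androstenone libraries. It was high in control 1, control 2, androstenone 3 and androstenone 4, and 38.3-fold higher in the highest library than in the lowest. Its log2FC of 0.50 (standard error 1.04, adjusted p = 0.86) was far smaller than that spread. In log2(TPM + 0.1), tested with limma, the sign turned, to -0.15.

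CRABP1, a carrier thought to hold retinoic acid in the cytoplasm and steer it to breakdown, varied most of the 9 genes. It lies on chromosome 7 from 47602316 to 47608865 and was at 64.5, 82.7, 3.63 and 45.8 CPM in the control libraries and at 8.44, 1.71, 149 and 113 CPM in the androstenone libraries. The highest library was 87.1-fold above the lowest. The SD of its log2 CPM over the 8 libraries, 2.45, was larger than that of 99.5% of the 15945 genes with a mean of at least 1 CPM. The group difference was a log2FC of 0.47 (standard error 1.26, adjusted p = 0.895). CRABP2 (chromosome 4, 93388198 to 93393861) was at 4.72, 9.58, 3.46 and 20.3 CPM in the control libraries and at 2.48, 1.28, 7.44 and 6.15 CPM in the androstenone libraries. Its means were 9.51 ± 7.65 and 4.34 ± 2.93 CPM, a log2FC of -1.14 that did not pass (standard error 0.70, unadjusted p = 0.138 and adjusted p = 0.54 by the edgeR QL test). Without control 4, the library at 20.3 CPM, it was -0.46. CRABP1 exceeded CRABP2 in every library in TPM, by 1.52 to 29.0 times.

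The enzymes that clear retinoic acid differed from each other in their distribution over the libraries. CYP26A1 (chromosome 14, 104561394 to 104567099) was at 5.14, 3.76, 17.5 and 6.15 CPM in the control libraries and at 4.33, 3.73, 8.91 and 6.05 CPM in the androstenone libraries. It was highest in control 3, and its log2FC of -0.51 (standard error 0.52, adjusted p = 0.692) became 0.20 without that library. In control 1 it had 25 counts (exact 95% Poisson interval 3.32 to 7.58 CPM). CYP26B1 (ENSSSCG00000008311) was at 6.78, 30.8, 2.14 and 29.7 CPM in the control libraries and at 1.27, 1.05, 8.83 and 5.76 CPM in the androstenone libraries. Control 2 and 4 were high, and control 3 lay below androstenone 3 and 4, so that the groups overlapped. The means of 17.4 ± 15.0 and 4.23 ± 3.76 CPM gave a log2FC of -2.05 (standard error 0.97, unadjusted p = 0.0654 and adjusted p = 0.459 by the edgeR QL test). It did not pass here, while the likelihood ratio test (unadjusted p = 0.0287), the exact test (0.0332) and DESeq2 (0.0233) put it past the unadjusted cutoff, as did the quasi-likelihood test without control 3 or without androstenone 3. With control 2 or control 4 left out it was -1.62 (unadjusted p = 0.158) or -1.65 (unadjusted p = 0.151). CYP26A1 made up 22.9% of the summed CYP26A1 and CYP26B1 level in TPM in control 2 and 95.2% in control 3, and 71.1% to 89.7% in the androstenone libraries.

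RARB, a receptor of retinoic acid and one of its direct targets, was the steadiest of the 9 genes. It lies on chromosome 13 from 12336387 to 12507688. Levels were 25.1, 17.1, 35.3 and 19.4 CPM without the spray (control 1 to 4) and 36.0, 38.6, 32.4 and 23.7 CPM with it. The highest library was 2.25-fold above the lowest, and the groups overlapped through control 1 and control 3. The means were 24.2 ± 8.11 and 32.7 ± 6.5 CPM, a log2FC of 0.43 (standard error 0.27, adjusted p = 0.544), with a 95% interval from -0.18 to 1.04. The SD of its log2 CPM, 0.44, was equal to the median of the 15945 genes with a mean of at least 1 CPM.

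For each of the 9 genes except ALDH1A3, most of the variation thus lay within the groups. The share of the summed squares of log2 CPM that lay between the group means was 67.5% for ALDH1A3, 31.8% for RARB, 29.3% for CYP26B1 and 23.5% for CRABP2. For ALDH1A1 it was 10.2%, for ALDH1A2 8.72%, for CYP26A1 5.07%, for CRABP1 1.02% and for STRA6 0.0193%, against a median of 12.8% over the same 15945 genes. The SD of log2 CPM was above that of 87.3% of these genes for ALDH1A1 and above that of 89.4% to 99.5% for ALDH1A2, ALDH1A3, CYP26B1, CRABP1, CRABP2 and STRA6. CYP26A1 was above 74.2% and RARB above 49.6%.

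The genes fell into patterns over the libraries that crossed the groups. ALDH1A1 and RARB ordered the libraries the same way in 26 of 28 pairs, and each of them was ordered like the sum of the respiratory ciliated cell markers in 26, and like the sum of the olfactory transduction markers also in 26. Where the olfactory sum was high, it was mostly STOML3 (190 of 215 TPM in control 3, 163 of 186 TPM in androstenone 2). CNGA2 was highest in androstenone 2 and 1 (5.01 and 4.95 TPM). ANO2 was instead lowest in androstenone 2, control 3 and androstenone 1 (3.18, 3.53 and 8.24 TPM), and GNAL in androstenone 1 and 2 (0.497 and 0.737 TPM). The count for this sum thus does not stand for the list as a whole. ALDH1A2 and CRABP1 shared 26 of 28 pairs, CRABP1 and STRA6 25, and ALDH1A2 and STRA6 23. For all 3 genes the 4 highest libraries were control 1, control 2, androstenone 3 and androstenone 4. The sum of the 3 matched basal cell markers (KRT15, TP63 and NGFR) was ordered like CRABP1 in 26 pairs, like STRA6 in 25 and like ALDH1A2 in 23. This was not particular to basal cells. The endothelial sum was ordered like CRABP1 in 25 pairs, like ALDH1A2 in 22 and like STRA6 in 20. For the smooth muscle and pericyte sum these counts were 22, 23 and 19. CYP26B1 and CRABP2 shared 26 pairs with each other, and 27 each with the smooth muscle and pericyte markers. CRABP2 also shared 27 with the fibroblast markers. ALDH1A3 shared 24 pairs with CYP26B1 and 22 with CRABP2. ALDH1A1 was ordered against ALDH1A3, CYP26B1 and CRABP2, with 5 of 28 pairs shared with each, and RARB shared 3 with each. CYP26A1 stood apart, with at most 18 shared pairs with any other of the 9. The points of these counts are 8 libraries of 4 sows that share the tissue make-up given above, and the counts are descriptions with no test.

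**Figure D3:**
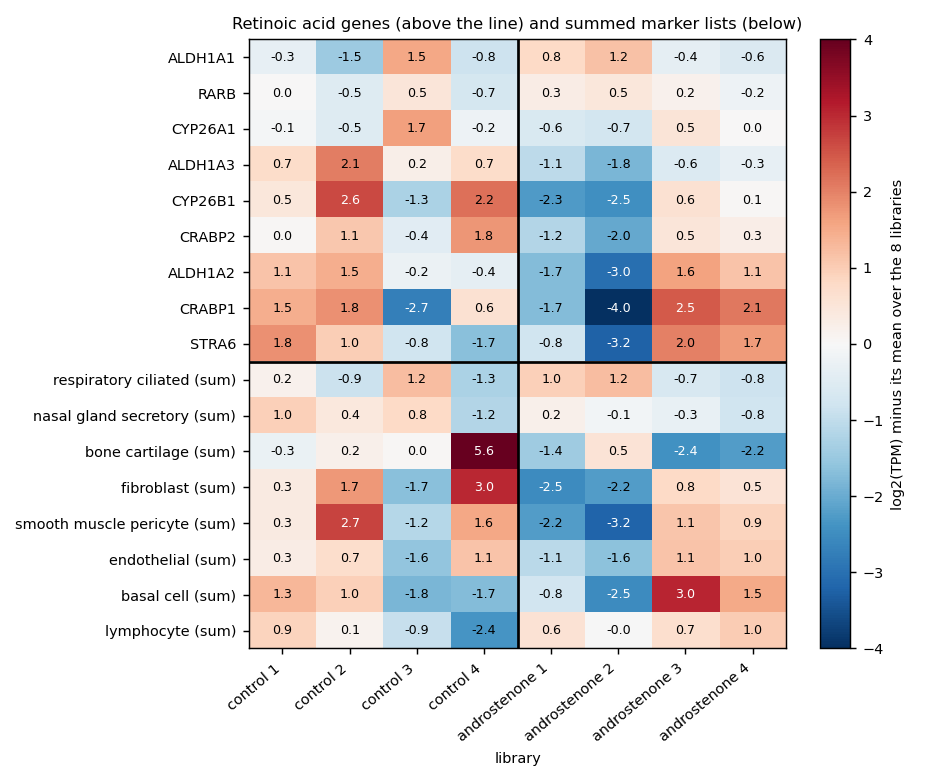
Level of each retinoic acid gene (rows above the line) and of the summed marker genes of 8 cell types (rows below) in each library (columns), as log2(TPM) minus its mean over the 8 libraries. ALDH1A1 and RARB are high where ciliated cell markers are high, and CRABP1, STRA6 and ALDH1A2 where basal cell markers are high. CRABP1 and ALDH1A2 follow the endothelial markers about as closely as the basal cell markers. The bone and cartilage sum of control 4, at 5.57, lies beyond the end of the color scale at 4.

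For each of the 9 genes, the genes with the most similar library profile were sought among 13449 named genes with a mean of at least 1 CPM. Likeness was the root mean square difference of centred log2 CPM over the 8 libraries. ALDH1A1 was closest to C4BPA (0.08), CFAP90 and SLC22A18 (0.10 each), and RARB to EPB41L4A (0.07), COX6B2 and CHPT1 (0.08 each). CYP26A1 was closest to ELAVL4 (0.19), TRHR (0.21) and LMOD3 (0.26). CRABP2 was closest to FSTL1 (0.22), FGFR1 (0.29) and PALM2AKAP2 (0.30), and CYP26B1 to ARMCX2 (0.26), GSC (0.32) and TMOD2 (0.33). CRABP1 was closest to GPC6 (0.30), CLDN11 (0.36) and CPXM1 (0.37), STRA6 to WNT6 (0.29), TP63 (0.41) and COL23A1 (0.46), and ALDH1A2 to ST6GAL2 (0.34), KANK4 (0.36) and EPHA7 (0.41). ALDH1A3 was closest to NYAP1, ZNF391 (0.39 each) and FBN3 (0.40), genes of low level (means of 1.68, 0.36 and 0.282 TPM). ALDH1A1 had much nearer neighbors than ALDH1A3 at a similar SD of log2 CPM (1.07 and 1.15). The distances of RARB cannot be compared with these, since its SD was 0.44 and a smaller spread allows smaller distances.

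The rest of the retinoid pathway was read from the same fit. Of 51 further genes of uptake and storage, retinol oxidation, synthesis, transport, breakdown, receptors, coregulators and response, 48 matched an identifier and 47 were tested. At the unadjusted cutoff 2 were higher (2.04% of all genes tested passed in that direction) and 2 lower (4.38%), and the median log2FC was -0.11. The 2 that were higher were ADH7 and RBP4, and the 2 that were lower were RXRG and AOX1. None of the 47 passed after adjustment in edgeR's quasi-likelihood test. In the likelihood ratio test, ADH7 (unadjusted p = 5.74e-07) and RXRG (3.25e-05) lay below ALDH1A3 (0.000206), which passed after adjustment there. The same held in the exact test (4.07e-07 and 4.69e-05, against 0.000229). Adjustment keeps the order of p, so ADH7 and RXRG passed in these tests too.

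ADH7, an alcohol dehydrogenase of stomach and upper airway lining that also oxidises retinol, was at 0.616, 0.458, 0.772 and 0.662 CPM in the control libraries and at 2.33, 2.22, 6.26 and 4.02 CPM in the androstenone libraries. The groups did not overlap, which was so, with the androstenone treatment group higher, for 3.89% of all genes tested. Its log2FC was 2.56 with a standard error of 0.42 (unadjusted p = 0.000241, adjusted p = 0.342), and the call held under all alternatives, between 1.19 and 2.73. RBP4, the retinol carrier of plasma, was at 3.08, 1.89, 6.13 and 3.04 CPM in the control libraries and at 23.1, 24.5, 4.48 and 3.84 CPM in the androstenone libraries. It was high in androstenone 1 and 2, while androstenone 3 and 4 were within the control range. The log2FC was 1.98 (standard error 0.70, adjusted p = 0.416), and the call was lost without androstenone 1 (unadjusted p = 0.0585), androstenone 2 (0.0639), control 2 (0.0567) or control 4 (0.0544). It was lost as well in limma voom (unadjusted p = 0.0868) and in limma on log2(TPM + 0.1) (0.0633) or log2(TPM + 1) (0.0722). In the quasi-likelihood test, the replicate block (0.126) and leaving out control 1 and control 4 together (0.139) lost it too.

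RXRG, a partner of the retinoic acid receptors, was at 0.616, 0.600, 1.95 and 0.782 CPM in the control libraries and at 0.220, 0.267, 0.167 and 0.219 CPM in the androstenone libraries. The groups did not overlap, which was so, with the androstenone treatment group lower, for 2.64% of all genes tested. Of the 47 other pathway genes, this was 1 in that direction (RXRG) and 2 in the other (ADH7 among them). The log2FC of RXRG was -2.22 with a standard error of 0.47 (unadjusted p = 0.00133, adjusted p = 0.378 by the edgeR QL test). It was -0.61 and below the fold cutoff on log2(TPM + 1). Control 1 contributed 3 counts to RXRG and 3 to ADH7. AOX1, an aldehyde oxidase that accepts retinaldehyde, was at 18.3, 20.4, 6.13 and 35.3 CPM against 8.94, 6.02, 9.81 and 6.06 CPM. Control 3 lay within the range of the androstenone libraries, and the log2FC of -1.38 (standard error 0.47, adjusted p = 0.416) was -0.95 without control 4 (unadjusted p = 0.0569). The call was also lost in limma voom, in limma on log2(TPM + 1), with the replicate block and without control 1 and control 4 together.

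The more abundant genes of the pathway did not pass the cutoff. Among the retinol oxidising and retinaldehyde reducing enzymes, DHRS9 was at 136 TPM and DHRS3 at 86.4 TPM on average over the 8 libraries, with log2FCs of -0.03 (95% interval -2.02 to 1.97) and 0.13 (-0.29 to 0.56). The lipoprotein receptor SCARB1 (23.2 TPM) was at -0.06 (-0.87 to 0.75). The receptors RXRA (33.8 TPM) and RARG (33.5 TPM) had values of -0.20 (-0.75 to 0.34) and -0.84 (-2.08 to 0.40), and the corepressor NCOR1 (31.3 TPM) of -0.11 (-0.45 to 0.23). FABP5, which carries retinoic acid to another receptor, was at 85.3 TPM with a value of -0.77 (-1.65 to 0.11). Of the response genes, RARRES2 (129 TPM) and RARRES1 (45.7 TPM) were at -0.90 (-2.98 to 1.19) and -1.13 (-2.78 to 0.53), and 0 of the 7 tested passed. CYP26C1, the remaining enzyme of its family, was at 0.0439 TPM, and ALDH8A1, a dehydrogenase that accepts 9-cis-retinal, at 0.643 TPM with a log2FC of -0.94 (unadjusted p = 0.0397).

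**Figure D4:**
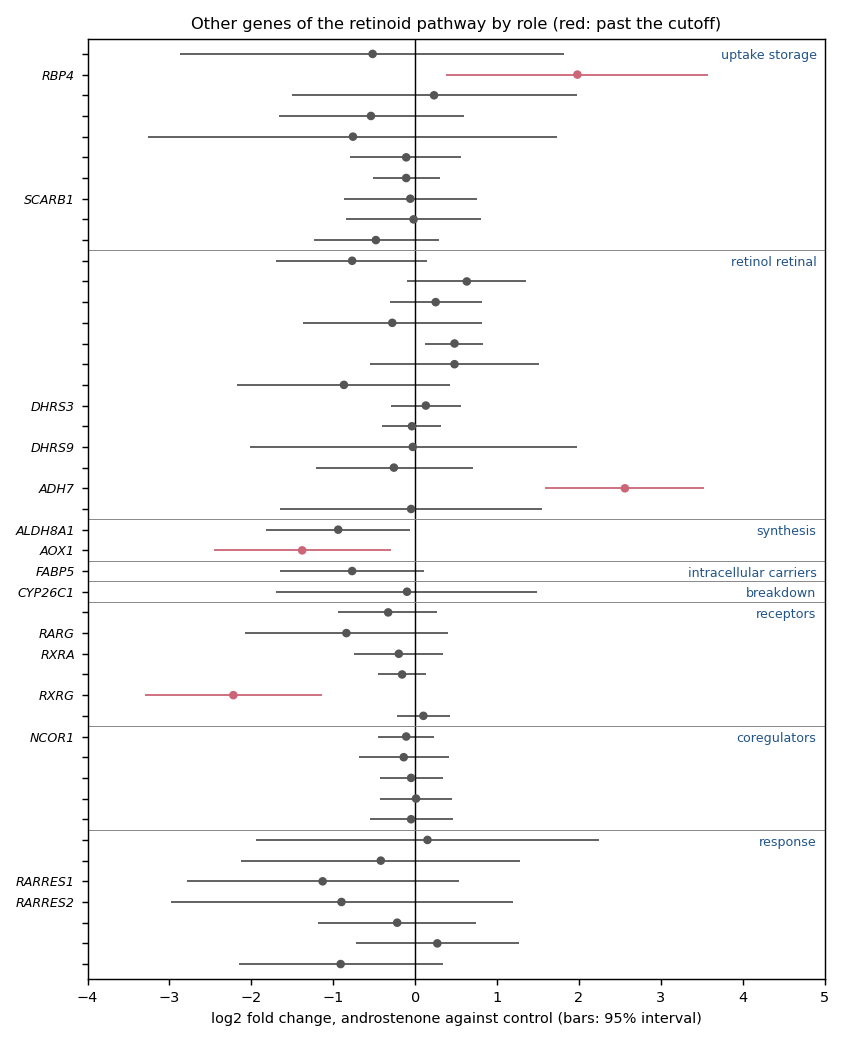
Log2 fold change of the androstenone treatment group against the control group (horizontal axis, bars are 95% intervals) for 45 of the 47 other tested genes of the retinoid pathway, grouped by role, with the genes named in the text labelled. The 4 red genes (RBP4, ADH7, AOX1 and RXRG) passed the unadjusted cutoff, and the other 41 drawn did not.

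**Figure D5:**
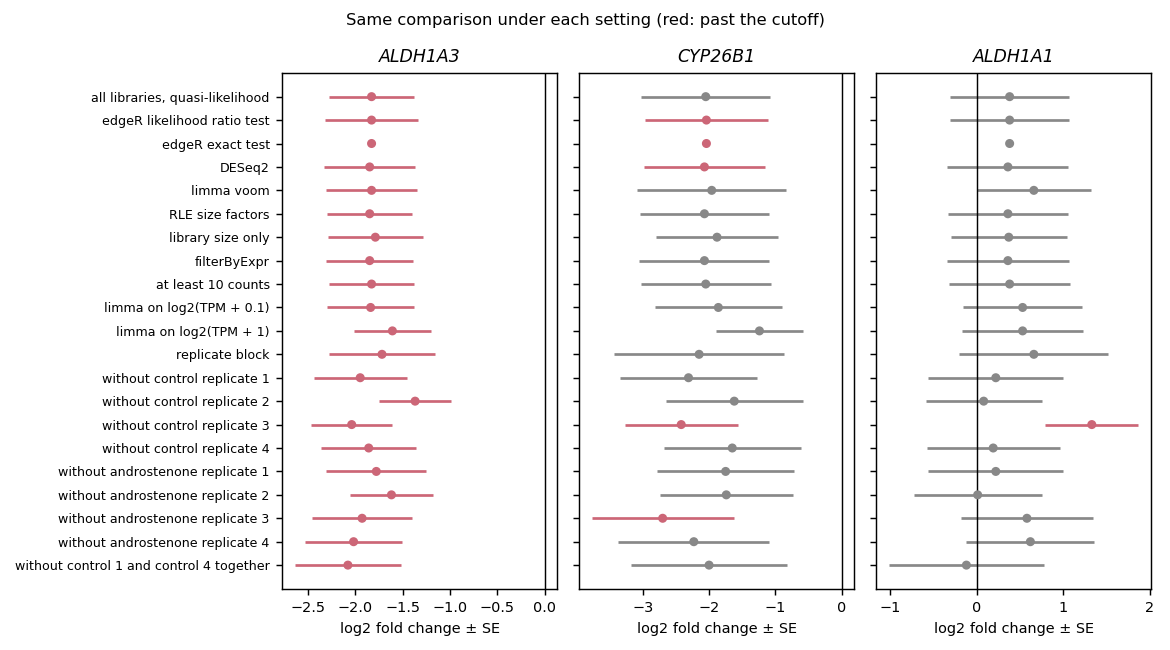
Log2 fold change and standard error (horizontal axis) of ALDH1A3, CYP26B1 and ALDH1A1 with all libraries and under each alternative (rows), where red marks a value past the unadjusted cutoff and the edgeR exact test gives no standard error. ALDH1A3 is red in every row, CYP26B1 in 5 of the 20 alternatives and ALDH1A1 in 1, the row without control 3.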

How the data were processed

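The left and right OE of 4 sows were sequenced as 8 paired-end RNA-seq libraries. Reads were filtered with fastp 0.23.1 and pseudoaligned to pig cDNA (Sscrofa11.1) with Kallisto 0.48.0, per the labels and the methods of the study. The authors deposited 2 values per library for each of 22516 genes: an estimated count, neither whole nor normalized, and a TPM, which is corrected for transcript length and for the library total. The step from transcripts to genes is not described in the sources at hand. Gene symbols came from a name table that matched 15527 identifiers, and coordinates from the RefSeq annotation of Sscrofa11.1, which gave none for CYP26B1 under that symbol.

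Estimated counts were rounded, the 21318 genes with any count (minimum 1 in all) were tested, and TMM scaled the libraries. The log2FC is from this fit. Groups were compared with edgeR 4.0.16 in R 4.3.3 (quasi-likelihood test, condition only), with Benjamini-Hochberg adjustment over all genes tested. Intervals are 95% t intervals of the fit. Alternatives used the likelihood ratio and exact tests of edgeR, DESeq2 1.42.0, limma 3.58.1, other scalings and filters, a replicate block and left-out libraries. The fits were also run on simulated counts of independent libraries, which copy neither the shared sows nor the uneven tissue make-up. Named are the 9 genes, other pathway genes that passed the cutoff or were among the 2 of highest mean TPM in their list, and the 3 nearest profiles per gene. Of the pathway genes, 2 are counted in the totals and not reported here. The members and lists were chosen with earlier results of these data known. Of the marker lists, UGT2A1, CYP2G1, KRT5, KRT14, DMBT1, S100B and VWF matched no identifier, nor did ADH1C, AKR1B10 and CDX1 of the pathway lists.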

Additional observations from a re-analysis of the deposited data

Results flagged for a closer look

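Among the values of the 9 retinoic acid genes and the 4 further pathway genes past the cutoff, 26 sets of 4 libraries (13 genes in 2 groups) were searched for a library far from the other 3 of its group, and 2 stood out. Chance gives about 1 in 20 such sets. ALDH1A1 was at 3981 CPM in control 3, against 480 to 1064 CPM in the other control libraries. RXRG was at 1.95 CPM in control 3, against 0.600 to 0.782 CPM in the other control libraries.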

How the results depend on the processing

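Of 180 values (9 genes under 20 alternatives), 166 kept the reported direction. With each library left out in turn, ALDH1A2 ranged from -0.80 to 0.30 (above 0 without control 1, control 2, androstenone 1 or androstenone 2), CYP26A1 from -0.80 to 0.20 (above 0 without control 3), CRABP1 from -0.25 to 0.87 and STRA6 from -0.13 to 1.21 (both below 0 without androstenone 3). CRABP1 also turned to -0.23 in limma voom, -0.57 on log2(TPM + 0.1), -0.52 on log2(TPM + 1) and -0.71 with the replicate block, and STRA6 to -0.15 and -0.07 on these TPM scales. ALDH1A1 turned to -0.12 without control 1 and control 4 together, an alternative chosen after seeing the data. The cause of these turns was not tested. The number of the 9 genes past the cutoff was 2 in DESeq2 and in the exact and likelihood ratio tests, and 1 to 3 with each library left out. Of the other pathway genes, 1 was higher in limma voom, on either TPM scale, with the replicate block and without control 1 and control 4 together, and 1 to 3 with each library left out. The number lower was 1 in limma voom, 0 on log2(TPM + 1), 1 with the replicate block and 2 to 4 with each library left out. Over all genes, 727 DEGs were called on log2(TPM + 0.1), 321 on log2(TPM + 1), 583 with the replicate block, 881 without control 1 and control 4 together, and 867 to 2414 with each library left out. The replicate numbers do not pair the samples: same-numbered libraries of the groups come from different sows, and the correlation of their deviations from the group means was -0.0531, -0.593, -0.686 and 0.222 for numbers 1 to 4. With 4 libraries and 2 sows per group, and 23 to 33 counts for CRABP2, CYP26A1 and CYP26B1 in control 1, small differences of these genes were not detectable.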
